A study of Homo sapiens with 12 samples.

Results

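The genes described here encode the nuclear subunits of the mitochondrial respiratory chain and of ATP synthase. They are the protein-coding genes whose symbols start with NDUFA, NDUFB, NDUFC, NDUFS or NDUFV and a digit, with UQCR, with COX4 to COX8 or with ATP5, plus SDHA to SDHD. This rule took 90 of the 58302 genes in the table, of which 39 belong to complex I, 4 to complex II, 9 to complex III, 17 to complex IV and 21 to complex V. Some matches are not ordinary subunits. ATP5IF1 is the inhibitor of ATP synthase, ATP5S is not a subunit of the enzyme, UQCRHL is an intronless copy of UQCRH, and NDUFC2-KCTD14 and ATP5MF-PTCD1 are transcripts that read through into a neighbouring gene. The rule leaves out NDUFAB1 and CYC1, which are subunits under other names.

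RNA was sequenced from 4 groups of 3 libraries. The cells were U251 and U87, long-established lines grown from human gliomas. U251 cells were given artesunate at 180 µM for 24 h and compared with U251 cells in medium labelled 10%DMEM, and U87 cells were given artesunate at 24.08 µM for 24 h and compared with U87 cells in that medium. All samples are labelled day 9. Artesunate is a semisynthetic relative of artemisinin, an antimalarial with an endoperoxide bridge that iron can open. The treatment label names artesunate, whereas the extraction text names artemisinin, and the control label names no solvent. Since the doses differ, a difference in response between the lines cannot be told apart from one between doses. The labels do not say whether replicates were separate cultures, so p-values measure the spread between these libraries, which may be technical. The libraries held 13631985 to 17314284 counts. Libraries of 1 group correlated at 0.985 to 0.987, except those of artesunate-treated U87 cells, at 0.972 to 0.981, where library 2 stood apart from libraries 1 and 3. Among 10 astroglial and glioma markers AQP4 was at 0 in all libraries. The glial markers SOX2 (means of 246 and 249 CPM) and GFAP (57.5 and 67.2) were present in treated and control U251 cells, whereas in treated and control U87 cells SOX2 was at 0 and GFAP at 1.67 and 1.01 CPM, beside vimentin at 5865 and 5891 CPM. Other markers of this list did not separate the lines in this way. S100B was at most 0.654 CPM in any group mean. CD44 (1195 and 1022 CPM in treated and control U251 cells, 551 and 519 in U87 cells) and EGFR (311 and 274, 256 and 325) were present in both lines. NES had 141 and 144 CPM in treated and control U251 cells, and 11.9 and 70.9 CPM in U87 cells. Summed markers of neurons, oligodendrocytes, microglia, endothelium and epithelium did not exceed 245, 9.06, 115, 99.9 and 37.3 CPM in any library.

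The respiratory chain passes electrons from NADH (complex I) and succinate (complex II) through ubiquinone to complex III, then through cytochrome c to complex IV, which reduces oxygen. Complexes I, III and IV pump protons, and complex V lets them flow back and makes ATP. Complexes I, III, IV and V combine subunits encoded in the nucleus with a few encoded by mitochondrial DNA, whereas complex II is encoded in the nucleus alone. Glioma cells rely on glycolysis to varying degrees and keep a respiratory chain.

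Of the 90 genes 82 had enough counts to be tested. The other 8 were the heart, muscle, testis or lung isoforms COX4I2, COX6A2, COX7B2, COX6B2, COX7A1 and COX8C, the read-through ATP5MF-PTCD1 and the gene copy ATP5MGL. COX4I2, COX6A2 and COX7B2 had no count in any library, which allows at most 0.061 to 0.068 CPM (3 counts over a group's 3 libraries). The remaining 5 of these had at most 5 counts in any library. Levels between genes are given as TMM-scaled CPM (counts relative to the library total) per kilobase of the representative transcript. On this scale, the summed level of complex I was 2073 ± 61.3 in treated and 2041 ± 37.3 in control U251 cells, and 1990 ± 257 in treated and 2216 ± 80.9 in control U87 cells (SD, n = 3). Complex IV came to 1259 ± 58.3 and 1168 ± 69.7 in U251 cells and to 1157 ± 193 and 1204 ± 72.4 in U87 cells, treated first in each line. Complex V came to 1406 ± 76.6 in treated and 1524 ± 123 in control U251 cells, and 1902 ± 233 in treated and 1687 ± 38.1 in control U87 cells. Complex III came to 573 ± 30.1 and 579 ± 36 in treated and control U251 cells, and 714 ± 110 and 642 ± 27.3 in treated and control U87 cells. The 4 genes of complex II summed to 181 ± 10.1 and 177 ± 5.74 in treated and control U251 cells, and 151 ± 20.8 and 165 ± 4.46 in treated and control U87 cells. These sums depend on the transcript taken. SDHC, with a representative transcript of 13566 bases, had 161 and 105 CPM in treated and control U87 cells but added 11.9 and 7.74. For every complex the libraries of treated U87 cells spread most, with library 2 lowest in each. The treated and control sums overlapped in both lines for all 5 complexes.

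**Figure D1:**
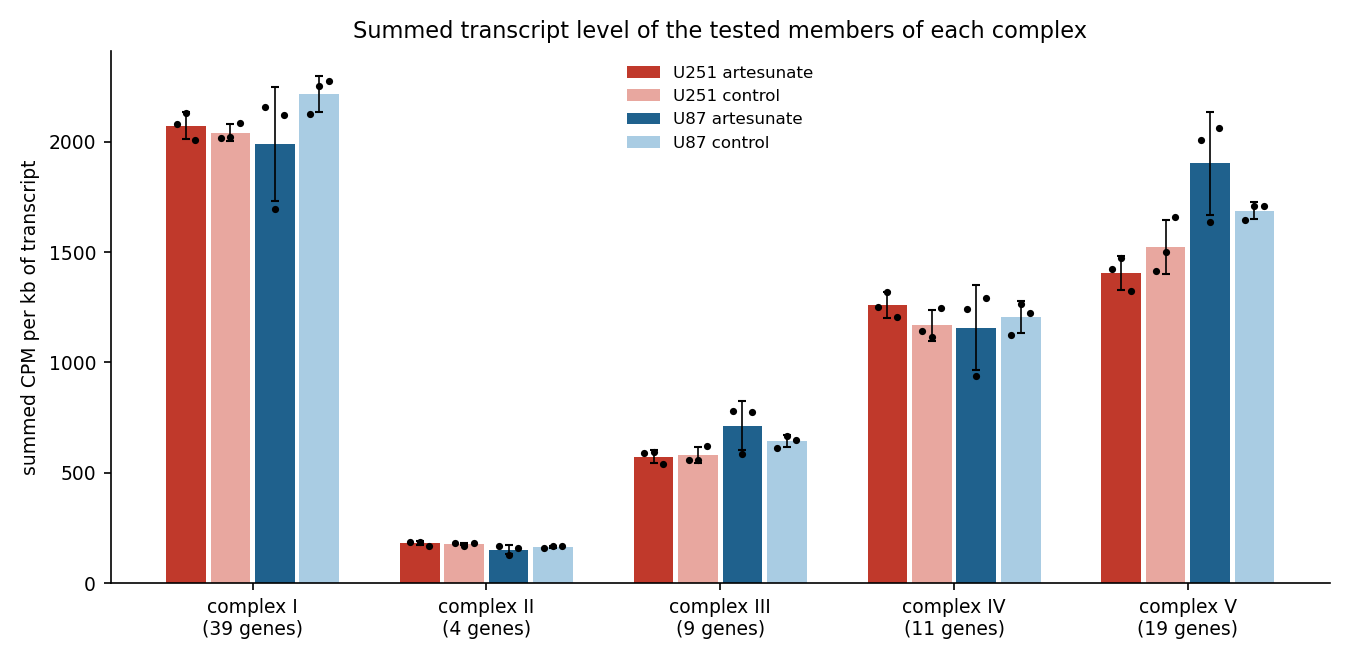
Summed CPM per kilobase of transcript for the tested members of each complex (y axis) in the 4 groups, with bars for means, error bars for SD and dots for the 3 libraries. Complex I summed to 1990 in treated and 2216 in control U87 cells, and complex V to 1902 and 1687, with library 2 of the treated cells lowest in every complex.

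In U251 cells artesunate left few of these genes past the test. With edgeR's quasi-likelihood test and Benjamini-Hochberg adjustment over 17150 genes, called at an adjusted p under 0.05, 1 of 82 members rose and 1 fell, or 2.44%, against 8.34% of all genes tested (4.09% called higher and 4.26% lower). The median log2 fold change was -0.04 over members and -0.00 over all genes. NDUFA13, also known as GRIM-19, is a membrane subunit of complex I that has been described as a regulator of cell death. It had 45.4, 44.9 and 41.8 CPM in treated U251 cells, against 25.2, 31.6 and 28.3 CPM in control U251 cells. The groups did not overlap, and the log2 fold change was 0.63 ± 0.13 (SE, adjusted p = 0.011). ATP5MC1, which encodes the c subunit of the ATP synthase rotor, had 22.2, 23.7 and 25.1 CPM in treated U251 cells, against 30.0, 32.3 and 30.1 CPM in control U251 cells. Every treated library lay below every control library (log2 fold change -0.38 ± 0.09, SE, adjusted p = 0.032). Both calls lay close to the threshold. NDUFA13 had an adjusted p of 0.054, 0.055 and 0.051 without treated library 1, control library 1 and control library 3 of U251. ATP5MC1 missed the threshold without treated library 1 or 2, without any 1 of the U251 controls and without U87 control 3, with adjusted p of 0.059 to 0.13 and log2 fold changes of -0.40 to -0.34. The count of calls depended on the fit. On the 6 U251 libraries alone, 7 members were called higher and 10 lower, where 9.69% and 9.23% of 15286 genes were (18.9% in all). DESeq2 called 4 higher and 5 lower, where it called 6.31% and 7.26% of all genes. Without U87 treated library 2 the joint fit called 4 higher and 9 lower, where 7.54% and 7.12% of all genes were called (14.7% in all). Library totals in place of TMM factors gave 1 higher and 2 lower, and the correction for GC content described below 2 and 5. With that correction 663 of 13576 protein-coding genes were called higher and 769 lower. The share of all genes with library totals was not counted.

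Uncalled log2 fold changes in U251 cells were at most 0.49 in size, except for NDUFA4L2 (1.57), ATP5S (1.11, adjusted p = 0.36) and the read-through NDUFC2-KCTD14 (0.81, adjusted p = 0.25). ATP5S had 15.6, 11.7 and 12 CPM in treated U251 cells, against 3.9, 7.42 and 6.83 CPM in control U251 cells. The 7 core subunits of complex I, which hold the flavin and the iron-sulfur clusters, ranged from -0.25 to 0.37 in log2 fold change. The 4 subunits of complex II ranged from -0.27 to 0.33, the 5 subunits of the F1 head and central stalk of complex V from -0.26 to 0.04, and the 10 ubiquitous subunits of complex IV from -0.34 to 0.42. The 4 subunits of the peripheral stalk of complex V, which holds the head still, were all below 0 at -0.49 to -0.16, and none of them passed. NDUFA4L2, a hypoxia-responsive relative of NDUFA4, had 1.72, 1.45 and 1.36 CPM in treated U251 cells, against 0.331, 0.669 and 0.501 CPM in control U251 cells. The groups did not overlap, at 22 to 24 counts in treated and 5 to 11 counts in control libraries, but the change did not pass (log2 fold change 1.57 ± 0.56, SE, adjusted p = 0.11). It passed when U87 treated library 1 was left out of the joint fit, at 1.57 with an adjusted p of 0.018. Over all members, the treated U251 libraries lay wholly above the controls in 13 of 82 genes and wholly below in 23 (43.9%), against 36.8% of all genes tested.

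In U87 cells 22 of 82 members rose and 30 fell, or 63.4%, against 58.3% of all genes tested (29.2% called higher and 29.2% lower). The median over members was 0.06 on the log2 scale and 0.00 over all genes. So the share called was near that of the transcriptome, and each complex had members that rose beside members that fell. Complex I had 8 that rose and 14 that fell of 39, complex II 1 and 2 of 4, complex III 2 and 4 of 9, complex IV 4 and 4 of 11, and complex V 7 and 6 of 19. Counting NDUFA4 and NDUFA4L2 with complex IV, where NDUFA4 is now placed, gives 7 and 14 of 37 for complex I and 5 and 4 of 13 for complex IV. Without treated library 2, 28 members rose and 30 fell, where 29.2% and 30.3% of all genes did (59.5% in all). The treated U87 libraries lay wholly above the controls in 20 members and wholly below in 31 (62.2%), against 62.5% of all genes tested. In bulk RNA, fewer cells with a transcript and less of it per cell cannot be told apart.

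**Figure D2:**
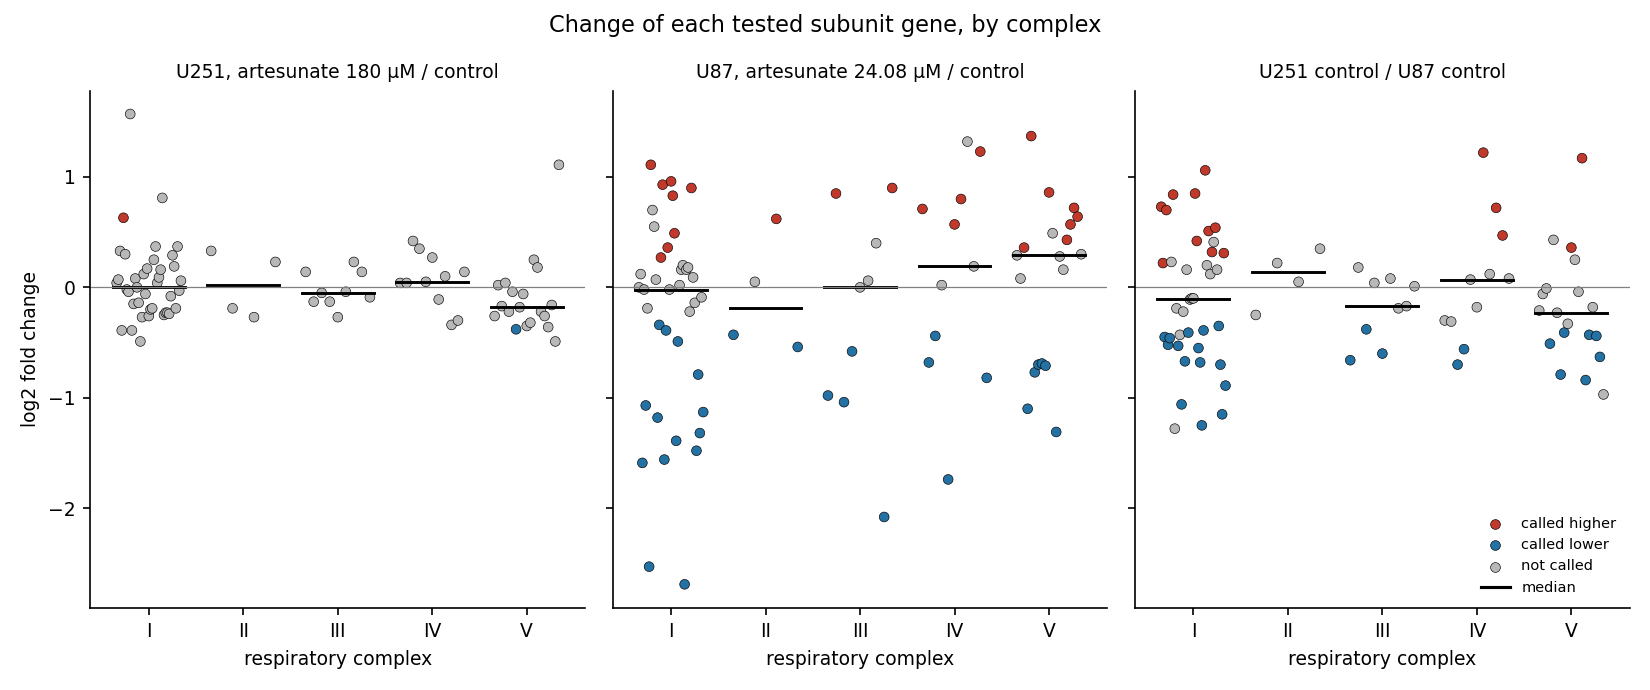
Log2 fold change (y axis) of each of the 82 tested genes by complex (x axis) for artesunate over control in U251, artesunate over control in U87, and U251 control over U87 control. Each dot is a gene, red called higher and blue called lower at an adjusted p under 0.05, and black lines are medians. In U251 2 genes were called, whereas in U87 every complex held genes called in both directions, from -2.69 to 1.37.

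The catalytic core of complex I fell or did not pass in U87 cells, and none of its 7 genes rose. NDUFV1 (chr11:67606852-67612535 on GRCh38) binds the flavin that takes electrons from NADH. It had 37.6, 57.4 and 42.8 CPM in treated U87 cells, against 117, 120 and 107 CPM in control U87 cells, so the groups were far apart (log2 fold change -1.32 ± 0.17, SE, adjusted p = 4.3e-05). NDUFS7 (chr19:1383527-1395589) holds the last iron-sulfur cluster before ubiquinone. It had 24.2, 35.7 and 31.3 CPM in treated U87 cells, against 81.1, 89 and 84.0 CPM in control U87 cells, a log2 fold change of -1.48 ± 0.13 (SE, adjusted p = 2.3e-06). NDUFS8, which carries the clusters before it, had 75.3, 87.6 and 58.3 CPM in treated U87 cells, against 123, 134 and 125 CPM in control U87 cells (log2 fold change -0.79). NDUFS1, NDUFS3 and NDUFV2, further core subunits, were not called, at 0.16, -0.22 and -0.09 on the log2 scale.

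Among the accessory subunits of complex I the largest fall was that of NDUFA3 (chr19:54102728-54109257), a small membrane subunit. It had 3.43, 4.82 and 3.33 CPM in treated U87 cells, against 24.0, 18.0 and 24.8 CPM in control U87 cells. The log2 fold change was -2.53 ± 0.20 (SE, adjusted p = 1.2e-06), while in U251 cells NDUFA3 was at 20.9 to 29.2 CPM in treated and 23.7 to 29.3 CPM in control libraries. NDUFA11, a membrane subunit, averaged 41.7 ± 8.16 CPM in treated and 126 ± 9.01 CPM in control U87 cells (SD, n = 3, log2 fold change -1.59). NDUFB10 (-1.56) and NDUFB7 (-1.39), small subunits of the membrane arm that face the intermembrane space, also fell, as did NDUFA7 (-1.18), NDUFV3 (-1.13) and NDUFA13 (-1.07). NDUFA13 thus changed in opposite directions in the 2 lines, and it had 18.7, 21.8 and 17.9 CPM in treated U87 cells, against 34.6, 46.1 and 41.7 CPM in control U87 cells. The read-through NDUFC2-KCTD14 fell by 2.69 on the log2 scale from a low level, at 0.478 ± 0.356 CPM in treated and 3.07 ± 1.06 CPM in control U87 cells. It shares sequence with NDUFC2, which was not called (0.20), so its value is uncertain.

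Other accessory genes of complex I rose in U87 cells. NDUFB4, a subunit of the distal membrane arm, had 184, 101 and 148 CPM in treated U87 cells, against 76.5, 74.9 and 70.6 CPM in control U87 cells (log2 fold change 0.96 ± 0.17, SE, adjusted p = 3.6e-04). NDUFB1 (0.93), NDUFS4 (0.90) and NDUFB5 (0.83) rose as well, and NDUFS4 is an accessory subunit whose loss causes Leigh syndrome in humans. Of the 11 NDUFB genes 5 rose and 4 fell. NDUFA4 (chr7:10931951-10940256) had 234, 176 and 221 CPM in treated U87 cells, against 95.2, 99.8 and 97.1 CPM in control U87 cells, a log2 fold change of 1.11 ± 0.14 (SE, adjusted p = 3.9e-05). Its relative NDUFA4L2 had 0.510, 3.29 and 2.24 CPM in treated U87 cells, against 0.898, 1.27 and 1.55 CPM in control U87 cells. The treated libraries lay on both sides of the controls and the change was not called (0.70, adjusted p = 0.24), but it was called at 1.16 (adjusted p = 0.01) without treated library 1 and at 1.91 (adjusted p = 0.003) with the correction for GC content.

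Complex II, which is also the enzyme of the citric acid cycle that oxidises succinate, split among its 4 genes in U87 cells. SDHC, a membrane anchor, had 160, 155 and 168 CPM in treated U87 cells, against 101, 97.8 and 116 CPM in control U87 cells, and rose (0.62 ± 0.09, SE, adjusted p = 7.1e-05). SDHD, the other anchor, had 20.1, 27.2 and 20.8 CPM in treated U87 cells, against 33.6, 32 and 33.7 CPM in control U87 cells, and fell (-0.54 ± 0.17, SE, adjusted p = 0.014). The 2 anchors, which form a pair in the membrane, thus moved apart. SDHA, the flavoprotein, fell to 96.1 ± 11.8 CPM in treated cells, against 129 ± 14.7 CPM in control U87 cells (SD, n = 3, -0.43, adjusted p = 0.015). SDHB, the iron-sulfur protein, was not called (0.05). Single libraries decided some of these calls. SDHA had an adjusted p of 0.06 (-0.34) without control 2, and SDHD 0.055 (-0.46) and 0.051 (-0.50) without treated library 1 and treated library 3.

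In complex III, UQCRQ and UQCR11, small subunits, rose in U87 cells, whereas UQCRB, UQCR10, UQCRC1 and UQCRHL fell. UQCRQ had 205, 123 and 190 CPM in treated U87 cells, against 91.1, 93.7 and 92.0 CPM in control U87 cells (0.90 ± 0.16, SE, adjusted p = 5.4e-04). UQCRB, which lies near the ubiquinone site, had 41.3, 34.8 and 39.5 CPM in treated U87 cells, against 80.8, 78.0 and 78.4 CPM in control U87 cells, a log2 fold change of -1.04 ± 0.08 (SE, adjusted p = 1.5e-06). The core protein UQCRC1 fell (-0.58), and its partner UQCRC2 (-0.00) and the Rieske iron-sulfur protein UQCRFS1 (0.06) were not called. UQCRHL (chr1:15807169-15809348) had 10.4, 7.01 and 7.69 CPM in treated U87 cells, against 32, 36.9 and 37.1 CPM in control U87 cells (-2.08 ± 0.16, SE, adjusted p = 9.3e-07). Its parent UQCRH, the acidic hinge protein, had 132, 70.1 and 122 CPM in treated U87 cells, against 76.2, 85.0 and 84.4 CPM in control U87 cells, and was not called (0.40, adjusted p = 0.079). The coding sequences of the 2 genes, 273 bases each, differ at 4 bases, so reads cannot be split well between them. Their first 90 coding bases, with G and C in capitals, are shown because they are the same letter for letter:
UQCRH: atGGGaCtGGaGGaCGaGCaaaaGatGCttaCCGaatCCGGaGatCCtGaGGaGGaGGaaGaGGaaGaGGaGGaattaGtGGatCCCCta
UQCRHL: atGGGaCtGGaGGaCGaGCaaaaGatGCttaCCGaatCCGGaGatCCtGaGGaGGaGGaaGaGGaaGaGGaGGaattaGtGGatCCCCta
Summed, the 2 genes had 142, 77.1 and 129 CPM in treated U87 cells, against 108, 122 and 121 CPM in control U87 cells, so the sums overlapped and the fall of UQCRHL alone is uncertain.

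Of the 10 ubiquitous nuclear subunits of complex IV 4 rose and 4 fell in U87 cells. COX6B1 (chr19:35648223-35658861), which bridges the dimer on its outer side, had 30.3, 24.6 and 28.4 CPM in treated U87 cells, against 87.3, 95.5 and 95.6 CPM in control U87 cells. Its 3 treated libraries lay close together, and the log2 fold change was -1.74 ± 0.09 (SE, adjusted p = 8.9e-08). In U251 cells COX6B1 was at 95.6 to 104 CPM in treated and 91.5 to 101 CPM in control libraries. COX7C, a small membrane subunit, had 280, 163 and 276 CPM in treated U87 cells, against 111, 105 and 90.2 CPM in control U87 cells (1.23 ± 0.17, SE, adjusted p = 7.9e-05). COX4I1, the largest nuclear subunit, rose (0.71), as did COX7A2 (0.80), while COX8A (-0.82) and COX5A (-0.68) fell. The alternative isoform of COX4I1, COX4I2, had no count, and COX6A1 was not called (0.02) beside an undetected COX6A2. COX7A2L, an assembly factor of supercomplexes that is related to COX7A2, had 200, 52.7 and 202 CPM in treated U87 cells, against 32.5, 71.5 and 78.5 CPM in control U87 cells. Its libraries fell into separate levels in each group, U251 included (84.6, 35.6 and 91.2 CPM in treated and 80.7, 28.7 and 88.4 CPM in control U251 cells), and the change of 1.32 was not called (adjusted p = 0.064). Without U87 treated library 2 it was called at 1.72 (adjusted p = 0.012), and without U251 control 2 at 1.31 (0.048).

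Complex V showed the plainest grouping by role in U87 cells. All 4 genes of the peripheral stalk rose, and all 3 genes of the c-ring, the rotor in the membrane, fell. ATP5PF (0.72), ATP5PO (0.64), ATP5PD (0.57) and ATP5PB (0.43) make up the stalk. ATP5PO, also called OSCP, had 190, 136 and 194 CPM in treated U87 cells, against 113, 111 and 108 CPM in control U87 cells. ATP5MC1 (-0.70), ATP5MC2 (-0.69) and ATP5MC3 (-0.71) encode the same mature c subunit and fell to nearly the same extent. Their summed CPM averaged 168 in treated and 274 in control U87 cells, and 184 in treated and 202 in control U251 cells. ATP5MC3 gave 46.8, 41.2 and 57.4% of that sum in treated U87 cells, against 50.7, 46.7 and 51.5% in control U87 cells. ATP5MC1 had 32.4, 35.9 and 30.5 CPM in treated U87 cells, against 52.6, 56.4 and 51.3 CPM in control U87 cells, and so fell in both lines. Since these lists were drawn up with earlier results of these data known, the grouping is a description.

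In the F1 head the catalytic subunit ATP5F1B averaged 479 ± 22.9 CPM in treated and 453 ± 17.5 CPM in control U87 cells (SD, n = 3) and was not called (0.08), nor was its partner ATP5F1A (0.29). ATP5F1C, the shaft, rose (0.36, adjusted p = 0.012), but not without treated library 3 (0.28, adjusted p = 0.054). ATP5F1E (chr20:59025467-59032382), the epsilon subunit at the foot of the shaft, had 454, 225 and 389 CPM in treated U87 cells, against 146, 126 and 141 CPM in control U87 cells. This was the highest called rise (1.37 ± 0.20, SE, adjusted p = 9.2e-05), and the row of its processed pseudogene ATP5F1EP2 held 700, 248 and 524 counts in treated and 168, 72 and 95 counts in control U87 libraries. ATP5F1D, the delta subunit that binds beside it, fell, with 21.9, 39.5 and 26.2 CPM in treated U87 cells, against 60.7, 64.8 and 62.5 CPM in control U87 cells (-1.10 ± 0.17, SE, adjusted p = 2.0e-04). ATP5MF, subunit f of the membrane part, fell (-1.31), and the inhibitor ATP5IF1 fell to 25.4, 28.1 and 28.1 CPM in treated cells, against 41.2, 50.6 and 47.5 CPM in control U87 cells (-0.77).

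**Figure D3:**
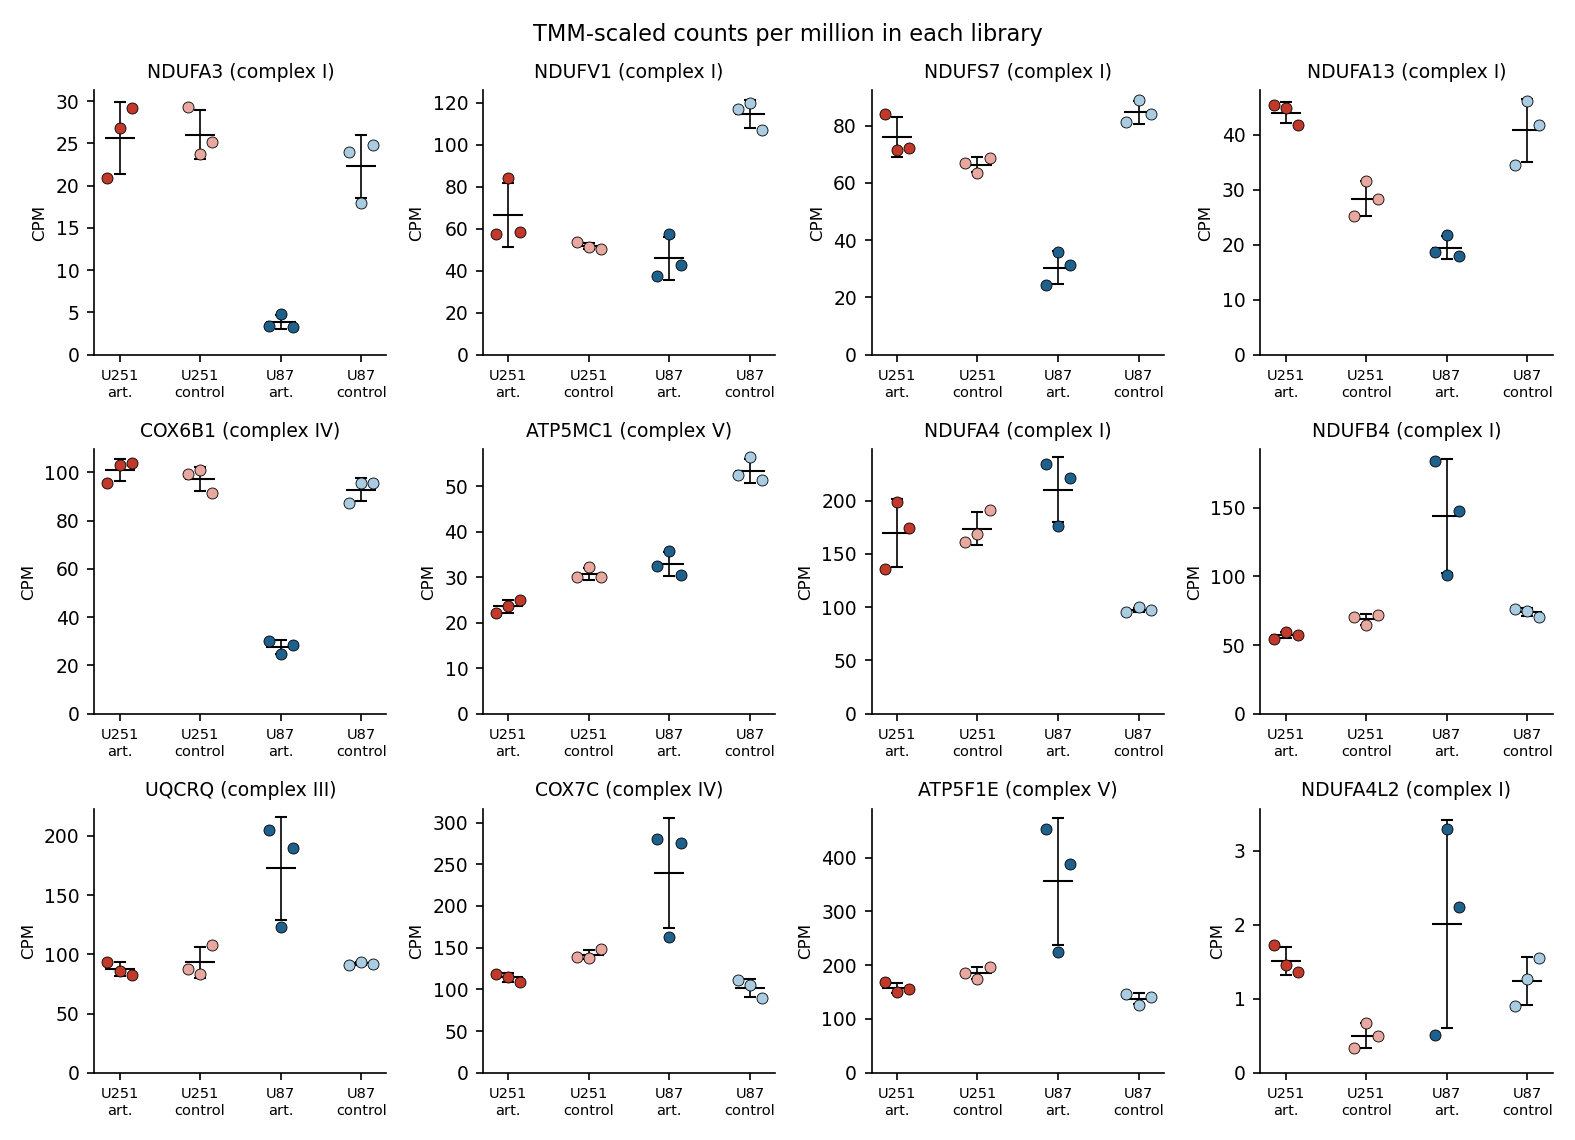
TMM-scaled CPM (y axis, from 0) in each library for 12 of the genes described, with the mean and SD of each group. NDUFA3, NDUFV1, NDUFS7, NDUFA13, COX6B1 and ATP5MC1 are lower in treated than in control U87 cells, NDUFA4, NDUFB4, UQCRQ, COX7C and ATP5F1E are higher, and treated U87 library 2 is the lowest of the 3 for each of these 5. NDUFA4L2 is below 4 CPM throughout.

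Across the 82 genes the direction of change in U87 cells went with the GC content of the representative transcript. Genes that rose had a median GC content of 43.3%, those that fell 55.8% and those not called 47.5%. Of the 20 genes at 55% GC or more, 1 rose and 17 fell, and of the 24 genes under 45%, 14 rose and 3 fell. Pearson's r between GC content and log2 fold change was -0.56 over the 82 genes, which share their libraries, and -0.63 over the 13576 protein-coding genes tested, so the relation was not particular to the respiratory chain. Taken library by library against the control mean, r over the 82 genes was -0.63, -0.37 and -0.56 in treated U87 libraries 1, 2 and 3, and 0.29, 0.36 and 0.26 in treated U251 libraries 1, 2 and 3. The sign was thus opposite in the 2 lines.

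Coding sequences differ in composition. The first 90 coding bases of 2 genes that fell (NDUFB7, at chr19:14566078-14572062, and NDUFS7) and of 2 that rose (NDUFA4 and ATP5F1E) are given with every G and C in capitals:
NDUFB7: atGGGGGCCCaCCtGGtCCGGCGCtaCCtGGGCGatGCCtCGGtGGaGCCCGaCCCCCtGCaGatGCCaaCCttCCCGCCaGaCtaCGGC
NDUFS7: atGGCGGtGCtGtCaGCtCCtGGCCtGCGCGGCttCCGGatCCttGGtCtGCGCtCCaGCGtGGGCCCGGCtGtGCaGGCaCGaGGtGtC
NDUFA4: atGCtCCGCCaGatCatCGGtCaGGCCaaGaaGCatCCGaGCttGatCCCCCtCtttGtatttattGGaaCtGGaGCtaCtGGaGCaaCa
ATP5F1E: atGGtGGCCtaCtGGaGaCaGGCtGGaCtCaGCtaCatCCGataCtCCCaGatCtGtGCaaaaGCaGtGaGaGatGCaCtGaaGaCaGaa
The 4 stretches hold 71.1, 70.0, 51.1 and 51.1% G and C, and the whole coding sequences 65.9, 66.2, 46.9 and 45.1%. These 4 were chosen from genes rich and poor in G and C, and they do not span the whole range. The first 90 coding bases of ATP5F1D, which fell, hold 81.1%, and those of ATP5MD, which rose, 37.8%. COX6B1, which fell, holds 51.1% in its first 90 coding bases and UQCRB, which fell, 45.6%, whereas UQCR11, NDUFB1 and NDUFB5, which rose, hold 68.9, 66.7 and 64.4%.

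**Figure D4:**
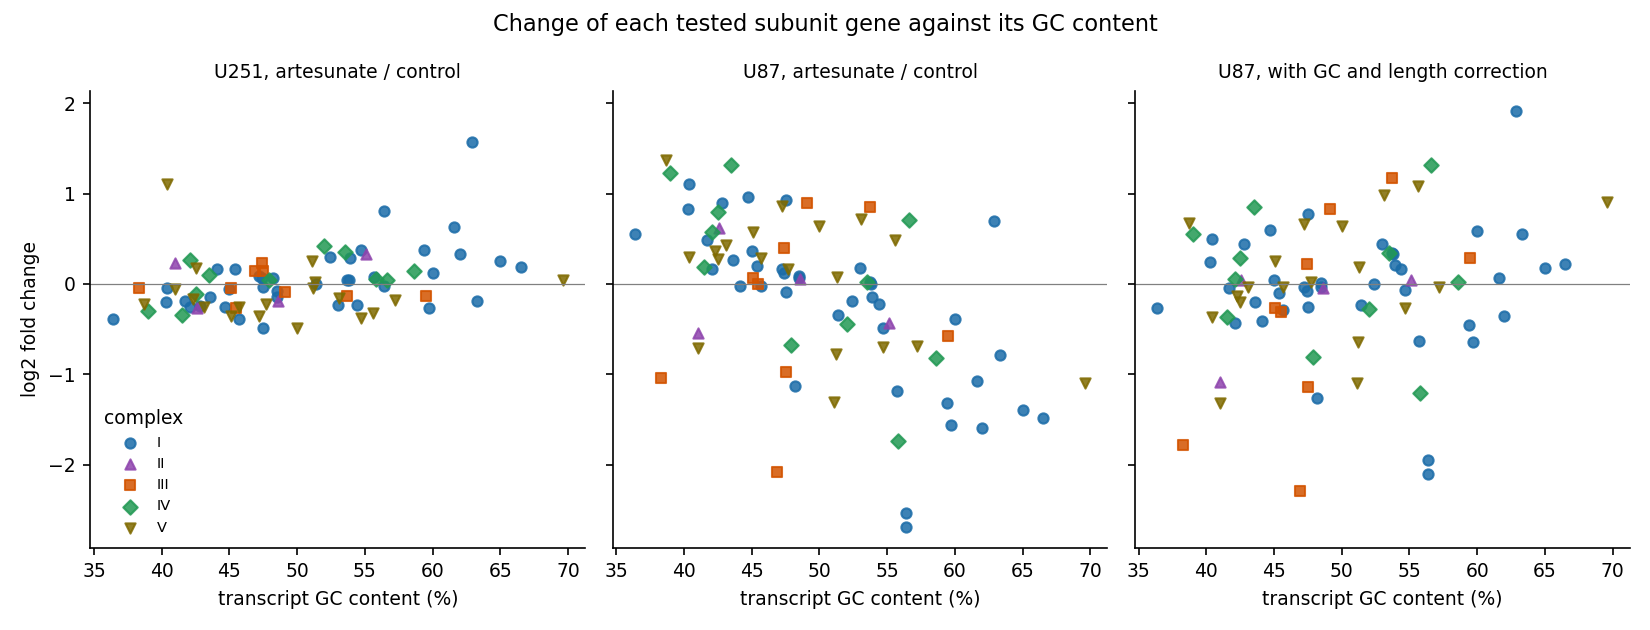
Log2 fold change (y axis) of each tested gene against the GC content of its representative transcript (x axis, percent), for U251, for U87 and for U87 after the correction for GC content and length. Symbols mark the complex. In U87 the points fall with GC content (r = -0.56), in U251 they rise slightly (r = 0.33), and after the correction the relation in U87 is 0.18.

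After GC content and transcript length were regressed out of every library, 21 members were called higher and 24 lower in U87 cells, where 22.7% and 22.4% of all genes were (45.2% in all). Of the 22 that had risen, 13 were called higher again, 9 were not called and 0 were called lower. Of the 30 that had fallen, 18 were called lower again, 8 were not called and 4 turned to called higher, namely NDUFB11, NDUFS8, UQCRC1 and ATP5F1D. For these genes the direction depended on the correction: ATP5F1D stood at -1.10 without it and 0.91 with it, NDUFS8 at -0.79 and 0.55. How many of all genes kept or turned their call with the correction was not counted. NDUFA11 (-0.36), NDUFS7 (0.22), NDUFB7 (0.18) and NDUFA13 (0.07) were no longer called, and SDHC (0.04) and SDHA (0.04) were not either. Among the core genes of complex I NDUFV1 kept its call (-0.46, adjusted p = 0.0093), and NDUFS1 (-0.43) and NDUFV2 (-0.26) were called lower. With NDUFS8 called higher, the core then held calls in both directions. The median over its 7 genes was -0.22 without the correction and 0.17 with it. With GC content and length from the longest transcript instead, NDUFS7 (-0.39, adjusted p = 0.0036) and SDHA (-0.39, adjusted p = 0.02) were called lower. NDUFS8 (0.01) was not called in that fit, and neither were NDUFA11, NDUFB7, NDUFA13 and SDHC.

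Genes with the same call in 4 fits numbered 11 that rose and 15 that fell, counted over the fit as described, both corrections (representative or longest transcript) and the fit without treated library 2. The share of all genes with the same call in these fits was not counted, so these numbers have no background. Those that rose were NDUFA4, NDUFB4, NDUFS4, UQCR11, UQCRQ, COX4I1, COX7C, ATP5F1E, ATP5MD, ATP5PD and ATP5PF. With the correction NDUFA4 stood at 0.50, COX7C at 0.55, ATP5F1E at 0.67 and ATP5PF at 0.98, and COX4I1 at 1.32. Those that fell were NDUFA3, NDUFA7, NDUFB10, NDUFC2-KCTD14, NDUFV1, NDUFV3, SDHD, UQCR10, UQCRB, UQCRHL, COX5A, COX6B1, ATP5IF1, ATP5MC1 and ATP5MC3. With the correction NDUFA3 stood at -1.95 and COX6B1 at -1.21. UQCRB (38.3% GC), SDHD (41.0%) and ATP5MC3 (41.0%) fell although their transcripts are poor in G and C, and with the correction they stood at -1.78, -1.08 and -1.32. In the peripheral stalk 3 of 4 genes were still called higher (ATP5PB was at -0.03), and in the c-ring 2 of 3 were still called lower (ATP5MC2 was at -0.03). With the correction from the longest transcript 2 of 4 stalk genes were called higher, since ATP5PO was at 0.29 (adjusted p = 0.09) and ATP5PB at 0.01, and all 3 c-ring genes were lower.

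Position on chromosomes 19, 11 and 1 went with GC content too. The 10 tested members on chromosome 19 had a median GC content of 59.0%. In U87 cells 8 of them fell and UQCR11 rose, with a median log2 fold change of -1.28, and with the correction 2 were called higher and 4 lower, with a median of -0.10. In U251 cells the same 10 genes had a median of 0.07. Of the 8 members on chromosome 11 (median GC content 55.4%), 0 rose and 5 fell in U87 cells, with a median of -0.67. The 8 on chromosome 1 (47.9%) had 2 that rose and 2 that fell, with a median of 0.14. The share called among all genes of these chromosomes was not counted. Whether chromosome 19 had a part in these changes apart from its GC content was not tested.

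The effect of artesunate differed between the lines for 50 of 82 members, or 61.0%, against 49.4% of all genes tested. For 26 members (background 24.1%) the effect in U251 was above that in U87, and for 24 (25.3%) it was below. In complex I the difference, U251 effect minus U87 effect, was 1.92 ± 0.18 for NDUFA11 and -1.42 ± 0.28 for NDUFB1 (SE, adjusted p = 1.1e-05 and 0.0012). In complex II it was 0.77 for SDHD and -0.88 for SDHC, and in complex III 2.21 for UQCRHL and -0.99 for UQCRQ. In complex IV it was 1.79 ± 0.13 for COX6B1 and -1.53 ± 0.24 for COX7C (SE, adjusted p = 2.7e-06 and 3.1e-04). In complex V it was 1.57 for ATP5MF and -1.60 for ATP5F1E. With the GC correction 16 members had a called difference above 0 and 18 below, and the share of all genes in that fit was not counted. NDUFA11 (0.48, adjusted p = 0.18) and SDHC (-0.30, adjusted p = 0.067) then had no called difference, and COX7C (-0.64), ATP5F1E (-0.71) and COX6B1 (1.17) had smaller ones. Without the correction a further 17 members had a called difference of at least 1 in size on the log2 scale. These were NDUFA3, NDUFA7, NDUFA13, NDUFB7, NDUFB10, NDUFC2-KCTD14, NDUFS7, NDUFV1, NDUFV3, UQCR10 and ATP5F1D above 0, and NDUFA4, NDUFB4, NDUFB5, NDUFS4, ATP5MD and ATP5PO below 0, at 1.12 (UQCR10) to 3.49 (NDUFC2-KCTD14) and at -1.23 (NDUFB4) to -1.04 (NDUFB5). With the correction NDUFA7, NDUFA13, NDUFB7, NDUFB10, NDUFS7, NDUFA4, NDUFB5 and NDUFS4 had no called difference, and ATP5F1D turned to -1.22 (adjusted p = 2.3e-05). The others kept a called difference on the same side of 0. All 4 peripheral stalk genes had a called difference below 0, and of the c-ring genes ATP5MC3 alone had a called one (0.66). With the correction 3 of the 4 stalk genes did, since ATP5PB stood at -0.11 (adjusted p = 0.72), and ATP5MC3 stood at 1.37. NDUFA13 and ATP5MC1 were the 2 members called in both lines, NDUFA13 in opposite directions (difference 1.70, adjusted p = 2.5e-05, or 0.36 and 0.11 with the GC correction) and ATP5MC1 in the same direction (difference 0.32, adjusted p = 0.064).

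Without drug the 2 lines differed in 43 of 82 members, or 52.4%, against 64.8% of all genes tested. In U251 controls 16 members were higher and 27 lower than in U87 controls, where 32.5% and 32.3% of all genes were. Complex II had no called member, complex III 0 higher and 3 lower, complex IV 3 higher and 2 lower, complex V 2 higher and 7 lower, and complex I 11 higher and 15 lower. COX7A2 had 79.9, 80.3 and 101 CPM in U251 controls, against 36.9, 36.7 and 38.5 CPM in U87 controls (1.22 ± 0.18, SE, adjusted p = 9.0e-05). ATP5MG, subunit g of ATP synthase, was higher by 1.17, with 79.9, 76.8 and 140 CPM in the 3 U251 controls, against 43.9, 37.0 and 50.5 CPM in the U87 controls. NDUFC2, a membrane arm subunit, averaged 77.3 ± 1.59 CPM in U251 and 37.1 ± 4.87 CPM in U87 controls (SD, n = 3, log2 difference 1.06). NDUFB9 had 26.9, 24.0 and 27.0 CPM in U251 controls, against 63.3, 56.6 and 65.7 CPM in U87 controls (-1.25 ± 0.19, SE, adjusted p = 1.0e-04). NDUFV1 (-1.15) and NDUFA8 (-1.06) were also lower in U251 controls, as were UQCR10 (-0.66) in complex III, COX5B (-0.70) in complex IV and ATP5MPL (-0.84) in complex V. ATP5MC1 was lower in U251 as well (-0.79), so its order from low to high was treated U251 (23.7 ± 1.45 CPM), control U251 (30.8 ± 1.31), treated U87 (33.0 ± 2.75) and control U87 cells (53.4 ± 2.69, SD, n = 3), of which control U251 and treated U87 cells overlapped. The libraries of the 2 control groups did not overlap in 67.1% of members, against 73.6% of all genes tested. The median log2 difference over members was -0.17. With the GC correction 22 members were higher and 21 lower, and the share of all genes in that fit was not counted. Here too the called genes differed in GC content, with a median of 43.9% for those higher and 53.1% for those lower in U251 controls.

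The promoters of respiratory genes are known for sites of nuclear respiratory factor 1, which is encoded by NRF1. The letters of its motif, GCGCA and GCGC with any base between them, were sought on both strands in the 250 bases before the RefSeq start of each gene (GRCh38.p14). They were present in 14 of 68 members with a promoter in the table (20.6%), against 5.53% of 27305 promoters. Of the 17 promoters of members that rose in U87 cells 5 held the motif, as did 5 of the 25 of members that fell and 3 of the 22 of those not called. The motif thus stood before genes that moved in both directions, as in these 2 promoters, shown with the motif in capitals. NDUFB4 rose (chr3:120596086-120596335, plus strand), and NDUFA3 fell (chr19:54102605-54102854, plus strand):
NDUFB4: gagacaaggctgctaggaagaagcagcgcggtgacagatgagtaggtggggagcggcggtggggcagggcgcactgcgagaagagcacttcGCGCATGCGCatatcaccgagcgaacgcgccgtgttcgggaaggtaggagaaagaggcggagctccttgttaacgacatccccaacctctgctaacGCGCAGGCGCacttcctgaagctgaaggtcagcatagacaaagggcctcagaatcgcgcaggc
NDUFA3: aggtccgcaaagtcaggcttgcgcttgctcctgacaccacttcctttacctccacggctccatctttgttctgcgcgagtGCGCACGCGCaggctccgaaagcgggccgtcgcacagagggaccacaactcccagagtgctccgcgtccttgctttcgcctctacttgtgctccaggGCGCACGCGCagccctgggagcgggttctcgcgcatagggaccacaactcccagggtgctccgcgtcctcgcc
A match describes these letters and no binding was measured.

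Genes that work beside these subunits were counted as lists. Of all genes tested, 4.09% were called higher and 4.26% lower in U251 cells. The shares in U87 cells were 29.2% and 29.2%, or 22.7% and 22.4% with the GC correction. In U251 cells none of 14 listed subunits and carriers, 16 assembly factors of complex I, 13 mRNAs of the mitochondrial genome or 11 transcriptional regulators was called. The list of 14 also holds ATP5IF1, ATP5MD and ATP5MPL, which match the naming rule and are members too. Of 33 assembly factors of complexes II to V COX19, a copper-related factor of complex IV, rose (0.67 ± 0.15, SE, adjusted p = 0.02). In U87 cells the 14 subunits and carriers had 5 that rose, the member ATP5MD included, and 6 that fell, the member ATP5IF1 included. They were led by ETFDH (1.12), which passes electrons from fat oxidation to ubiquinone, and by cytochrome c1, CYC1 (-1.38). CYC1 averaged 66.7 CPM in treated and 174 CPM in control U87 cells. With the GC correction CYC1 was not called (-0.22, adjusted p = 0.099). Of the complex I assembly factors 7 rose and 4 fell, led by TIMMDC1 (1.42) and FOXRED1 (-1.01). Of the other assembly factors 8 rose and 6 fell, led by TMEM70 (1.30), an assembly factor of complex V, and UQCC3 (-1.55), one of complex III. None of the 13 mitochondrial mRNAs rose and 9 fell, with a median of -0.97 that stood at -1.22 after the GC correction. Without treated library 2 all 13 fell, with a median of -1.68. The largest fall among them was MT-CO3 (-1.79 ± 0.18, SE, adjusted p = 6.6e-06), which encodes a core subunit of complex IV. The 4 that were not called were MT-ATP6 (0.22), MT-ATP8 (-1.28, adjusted p = 0.069), MT-ND4L (-0.12) and MT-ND6 (-0.63). Of the regulators 5 rose and 3 fell, led by GABPA (1.10) and ESRRA (-1.46), and NRF1 was not called (-0.35, adjusted p = 0.06). With the correction 3 rose and 3 fell, GABPA stood at 0.28 and ESRRA was not called (-0.28, adjusted p = 0.41). Between control cells the called genes of these lists with the largest differences, U251 over U87, were SLC25A4 (1.45), an ADP/ATP carrier, and ETFB (-2.62), TMEM126B (1.22) and TMEM186 (-1.31) among the complex I assembly factors, UQCC2 (1.42) and SCO2 (-3.32) among the others, MT-ND4L (0.59) among the mitochondrial mRNAs, and PPARGC1A (0.73) and PPARGC1B (-3.28) among the regulators. SCO2 was low in U251 controls, at 0.331, 0.487 and 0.376 CPM (SE 1.12, adjusted p = 0.021). PPARGC1A had 5.29, 11.1 and 10.8 CPM in U251 controls, against 6.79, 5.2 and 4.47 CPM in U87 controls. These groups overlapped, and its adjusted p rounds to 0.05.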

How the data were processed

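Per the submitters' processing notes and the series text, reads were cleaned with fastp, aligned with HISAT2 2.1.0 to GRCh38 with Ensembl 91 models and quantified with StringTie 1.3.3b. The authors deposited whole-number counts per gene, which were used for all tests, and FPKM values. With counts divided by plain library totals, these FPKM imply 507 bases for COX8A, 766 for NDUFA1, 844 for NDUFA8 and 3475 for UQCRFS1. Those are the lengths of their transcripts, so the FPKM values of these genes carry no TMM scaling. They also deposited log2 fold changes and q-values of their edgeR 3.30.3 comparisons. How counts were made and whether they used strand is not given in the sources used here, so reads of overlapping genes, near-identical copies and pseudogenes cannot be told apart. Processed and other pseudogenes of the members (149 in the table) took 0.86 to 1.29% of the counts that matched the naming rule.

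Counts were fitted with edgeR 4.0.16 (quasi-likelihood, R 4.3.3) on all 12 libraries, with 4 group means, TMM factors and filterByExpr (minimum count 10, minimum total 15). This kept 17150 genes, and p-values were adjusted by Benjamini-Hochberg over them. Standard errors were obtained by dividing the size of each log2 fold change by the root of its F statistic. CPM are scaled by TMM. The fit was tested on simulated data. GC content and length came from the APPRIS principal transcript of GENCODE release 29, in which all 90 members were found, 87 at the same position. The longest transcript was taken among equally ranked ones and where none was principal. The correction fitted a loess curve (span 0.3) of log2 counts on GC content and length in each library. The deposited FPKM imply gene lengths of 0.959 to 3.1 times the merged exons (81 members), so levels between genes are CPM per kilobase.

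Members and lists were chosen with earlier results of these data known. The named genes are, for each comparison and complex, the called gene with the largest change in each direction (mean log2 CPM of at least 3 in each group), isoform pairs, the complex I core, complex II and F1 subunits, called genes with a log2 fold change of at least 1 in size and 1 CPM in every library of a group, and genes below the filter. From each other list the called gene with the largest change in each direction is named. Others (such as the peripheral stalk, the genes with the same call in 4 fits, and the genes of the difference between lines) were named after their values were seen. Alternatives tried were DESeq2 1.42.0, other scaling, no filter, limma 3.58.1 on log2(FPKM + 1) and log2(FPKM + 0.1), fits on 2 groups, a replicate block, the GC correction and leaving out each library. Values of 1 gene that the rule would name are not reported here. Counting error alone sets the floor of 3 counts.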

Additional observations from a re-analysis of the deposited data

Results flagged for a closer look

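The effect of artesunate differed between the lines, by the interaction term of the joint edgeR fit, for 26 members with a difference (U251 effect minus U87 effect) above 0 and 24 below 0. Of all genes tested 24.1% had a called difference above 0 and 25.3% below 0. By complex, the largest differences on the log2 scale were 1.92 (NDUFA11) and -1.42 (NDUFB1), 0.77 (SDHD) and -0.88 (SDHC), 2.21 (UQCRHL) and -0.99 (UQCRQ), 1.79 (COX6B1) and -1.53 (COX7C), and 1.57 (ATP5MF) and -1.60 (ATP5F1E), taken over genes whose log2 CPM averaged 3 or more in every group. With the GC and length correction the differences in the same order were 0.48 and -1.20, 1.5 and -0.30, 2.48 and -0.88, 1.17 and -0.64, and 1.36 and -0.71. Those of NDUFA11 (adjusted p = 0.18) and SDHC (adjusted p = 0.067) were then not called. The doses were 180 and 24.08 µM, and an effect of line and of dose cannot be told apart.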

How the results depend on the processing

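Counts of called members in U87 cells stayed within 1.5 times of 22 higher and 30 lower under every alternative run. In U251 cells, beside 1 higher and 1 lower, the counts were 4 and 5 with DESeq2, 3 and 5 with log2(FPKM + 1), 1 and 2 with log2(FPKM + 0.1), 7 and 10 on the U251 libraries alone, and 1 and 2 with library totals or upper-quartile factors. They were 1 and 0 with no filter, 2 and 5 with the GC and length correction, 0 and 1 with the correction and a replicate block, 1 and 3 with the longest transcript and 6 and 8 with the correction without U87 treated library 2. The last 2 of these were chosen after seeing the data. Leaving out 1 library gave 0 to 4 higher and 0 to 9 lower in U251, 18 to 28 and 29 to 30 in U87, 25 to 28 and 19 to 32 for the difference between lines, and 13 to 19 and 20 to 33 between controls. For the difference, 16 were higher with the correction, 16 and 15 with the correction and block, 15 lower with the longest transcript and 16 higher without library 2. Between controls 15 were lower with the correction and block. No pairing by replicate number was assumed. Deviations from the group means correlated at -0.009 to 0.053 between same-numbered treated and control libraries of a line. Differently numbered ones correlated at -0.085 to 0.044. The replicate block alone gave 1 and 1 in U251, 23 and 30 in U87 and 26 and 24 for the difference, and 11 higher between controls beside 16. The shares of all genes tested were counted only for the fits whose shares are given above. The other counts of members here have no background beside them.

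Among single genes the direction in U87 turned mainly with the GC correction, since it changes each gene by its composition. In the order of correction, correction with block, longest transcript, and correction without library 2, ATP5F1C stood at -0.13, -0.13, -0.02 and -0.08, ATP5F1D at 0.91, 0.91, 0.31 and 0.98, NDUFA13 at 0.07, 0.07, 0.19 and 0.15, and NDUFB7 at 0.18, 0.15, 0.21 and 0.38. NDUFS1 stood at -0.43, -0.43, -0.42 and -0.47, NDUFS3 at 0.17, 0.17, 0.37 and 0.16, and NDUFS8 at 0.55, 0.53, 0.01 and 0.62. Where the longest transcript kept the sign, NDUFS7 stood at 0.22, 0.21 and 0.35, SDHA at 0.04, 0.02 and 0.18, and ATP5F1A at -0.03 and -0.00 for the first 2. The difference between lines turned for ATP5F1D (-1.22, -1.22, -0.54 and -1.30), NDUFB7 (-0.20, -0.17, -0.24 and -0.39) and NDUFS7 (-0.32, -0.31 and -0.45). SDHB and COX6A1 were uncalled and near 0 in the fit as described, and their sign varied between fits. The cause was not tested. SDHB stood at -0.03 with library totals, -0.00 with no filter, -0.05 with either FPKM fit, -0.05 and -0.06 with the correction and with its block, -0.01 with the longest transcript and -0.08 to 0.21 with 1 library left out. COX6A1 stood at -0.05 with library totals, -0.02 with upper-quartile factors, -0.03 with no filter, -0.06 with either FPKM fit, -0.01 on the U87 libraries alone and -0.12 to 0.13 with 1 library left out. It was called higher with the correction (0.34, adjusted p = 0.017) but called lower with the longest transcript (-0.54, adjusted p = 0.0012). Of the results of the genes named by the selection rule, each under all alternatives, 1682 kept their direction and side of the threshold. Of the rest 66 turned, 71 lost and 26 gained a call. Results of members that the rule did not name were not in this count.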

Other observations

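Among 14 enzymes of the citric acid cycle, which feeds complexes I and II, FH and SUCLG2 fell in U251 cells and none rose. Of all genes tested 4.26% fell and 4.09% rose there. FH, fumarate hydratase, averaged 119 CPM in treated and 164 CPM in control U251 cells (log2 fold change -0.46 ± 0.08, SE, adjusted p = 0.0035), and -0.34 with the GC correction. SUCLG2 fell by 0.37 (adjusted p = 0.029) and was not called after that correction. In U87 cells 2 of the enzymes rose and 7 fell, where 29.2% of all genes rose and 29.2% fell. The enzymes were led by SUCLA2 (0.78) and OGDH (-1.12), and OGDH averaged 102 CPM in treated and 223 CPM in control U87 cells. With the correction SUCLA2 was not called (0.15, adjusted p = 0.16) and OGDH stood at -0.55. The 1 enzyme then called higher was IDH3G (0.38), which stood at -0.64 without the correction, and 6 were called lower. Of all genes 22.7% were then called higher and 22.4% lower. Between control cells 5 of the 14 enzymes were higher and 6 lower in U251 than in U87, where 32.5% and 32.3% of all genes were. SUCLA2 (1.16) and IDH2 (-1.53) led them.

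LONP1, the mitochondrial protease that degrades COX4I1 when oxygen is low, averaged 175 CPM in treated and 121 CPM in control U251 cells and rose (0.53 ± 0.10, SE, adjusted p = 0.0085), but was not called with the GC correction (0.26, adjusted p = 0.08). In U87 cells it fell (-0.65), at 210 CPM in treated and 330 CPM in control cells, but stood at 0.63 with the GC correction. EPAS1, which encodes HIF-2 alpha, rose in U251 (0.48) and was called lower in U87 cells (-0.33), where it was not called with the correction (-0.15, adjusted p = 0.079).

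The authors' deposited table, at a q-value under 0.05, had 3 members higher and 0 lower in U251, 17 and 28 in U87, and 15 and 31 in U251 controls relative to U87 controls, where the table itself gives U87 over U251. In the same order of comparisons, 1 and 0, 16 and 28, and 13 and 27 of those in the authors' deposited lists were also called here in the same direction. The share of all genes in the authors' lists was not counted.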
